A study of Homo sapiens with 6 samples.

Results

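ABCG1, a cholesterol exporter, and 8 genes tied to sterol efflux through the liver X receptors (LXRs) were followed in ME-1 cells that had received SPNS2. The 9 genes are ABCG1, ABCA1, MYLIP, NR1H2, NR1H3, SREBF1, LPCAT3, ABCA7 and ABCA2, found by symbol among 34371 features of the count table, and all 9 had a row. ABCG1 was chosen by its rise in counts, about 5-fold, in this same comparison, so its values are a description with no test. The other 8 were chosen by their roles. ME-1 is an established line from human acute myeloid leukaemia with a CBFB::MYH11 fusion. The cells carried either an empty vector (CTRL, 3 libraries) or a vector that overexpresses SPNS2, a sphingosine-1-phosphate exporter (SPNS2, 3 libraries), and polyadenylated RNA was sequenced from selected cells. The labels do not name the promoter of the vector or say whether cells were cloned. In bulk RNA, fewer cells of a type and less RNA per cell cannot be told apart.

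LXRs are nuclear receptors that bind oxysterols, the oxidised forms of cholesterol, and act as partners of the retinoid X receptors. When sterol accumulates they raise a set of genes in macrophages that carries cholesterol out of the cell: ABCA1 loads it onto lipid-poor apolipoprotein A-I, and ABCG1 onto high-density lipoprotein. The same receptors raise MYLIP, a ubiquitin ligase that degrades lipoprotein receptors, SREBF1, a driver of fatty acid synthesis, and LPCAT3, which puts polyunsaturated chains into phospholipids. In haematopoietic tissue this efflux is known for its control of progenitor proliferation and for keeping macrophages from turning into foam cells.

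Library totals ran from 28605187 to 38489992 counts, and levels are given in CPM, TMM-scaled counts relative to the library total. A count of 0 still allows 0.0778 to 0.105 CPM, by library, from counting error only. The vector SPNS2 row was at 764 to 789 CPM in the SPNS2 libraries and at 0 to 0.233 CPM in the empty vector libraries. The native SPNS2 gene was at 49.3 to 52.6 CPM and at 40.9 to 44.7 CPM in the same order, so control cells expressed it too. Of 10 markers of myeloid progenitors, all had counts, led by MPO at 26100 ± 221 (CTRL) and 26000 ± 759 CPM (SPNS2; SD, n = 3 each), and 1 (ITGAM) was under 1 CPM. In edgeR 3 of the 10 rose (KIT by 0.55, PTPRC by 0.26 and CSF3R by 0.26 on the log2 scale) and 2 fell (CD33 by 0.71 and CD34 by 0.25), and their part in the levels of the 9 genes was not tested. Nothing in the labels states that separate cultures were used, so p-values measure only the spread between these samples, and that spread may be technical.

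Sequence features found in ABCA1 are shown here because ABCA1 and ABCG1 are the usual pair of LXR targets. RefSeq promoters, 250 bases before to 50 after a gene start, were searched for 8 of the 9 genes (12 promoters, GRCh38.p14), all but ABCG1. The search, on both strands, was for a DR4 element, the repeat with a spacer of 4 bases that LXRs bind, written loosely as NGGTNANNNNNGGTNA. The pattern was loosened to take in the known element of ABCA1, so its match there was built in. Of 35116 promoters of that length, 219 (0.624%) held a match, and of the 12 only that of ABCA1 did, 69 to 54 bases before the start (capitals), at chr9:104928106-104928405 on the minus strand.
ABCA1: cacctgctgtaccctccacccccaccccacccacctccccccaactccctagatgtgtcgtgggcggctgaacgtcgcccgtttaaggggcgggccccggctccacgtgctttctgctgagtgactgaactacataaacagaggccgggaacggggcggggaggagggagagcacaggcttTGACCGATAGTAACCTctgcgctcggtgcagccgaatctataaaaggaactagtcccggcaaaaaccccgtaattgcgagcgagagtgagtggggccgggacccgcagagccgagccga
A missing match says only that these letters are not in that window.

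SREBF1 is also the host gene of miR-33b, and its paralog SREBF2 that of miR-33a, microRNAs known to repress ABCA1. Their RefSeq sequences share the seed, bases 2 to 8 (capitals). Mature microRNAs were not measured in these libraries.
hsa-miR-33a-5p: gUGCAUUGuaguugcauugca
hsa-miR-33b-5p: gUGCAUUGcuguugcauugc
The complement of the seed, CAATGCA, occurred 4 times after the stop codon in the longest GENCODE 29 form of ABCA1 and in none of the other 8 genes. Of 15693 genes with at least 300 bases after the stop codon, 257 (1.64%) held it within the first 300. The 3 ABCA1 sites within that stretch begin 135, 140 and 150 bases after the stop codon (capitals mark the site). Those at 135 and 140 share bases, so they are not separate matches, and the stretches shown around all 3 overlap.
ABCA1 site at 135: gtactgatactattCAATGCAa
ABCA1 site at 140: gatactattcaatgCAATGCAa
ABCA1 site at 150: aatgcaatgcaattCAATGCAa

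ABCG1 was low in control cells and higher in every SPNS2 library. It stood at 1.63, 1.30 and 1.55 CPM in the empty vector libraries (63, 37 and 50 counts) and at 8.08, 7.48 and 7.06 CPM in the SPNS2 libraries (262, 235 and 238 counts). The groups did not overlap, and the 9 ratios between an SPNS2 and an empty vector library ran from 4.32 to 6.22. The fitted log2 fold change was 2.32 in edgeR, and pooled counts per library total gave a ratio of 5.02. Among called rises with a symbol and a mean of at least 1 CPM, ABCG1 ranked 5, between CDKN1C (2.65) and ABHD4 (1.66 on the log2 scale). With 37 to 63 counts in each empty vector library, the control values carry more counting error than those of the other 7 tested genes of the 9.

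ABCA1, the exporter that usually moves with ABCG1, was barely detected. It had 2, 1 and 4 counts in the empty vector libraries and 4, 4 and 2 in the SPNS2 libraries, or 0.0351 to 0.124 and 0.0593 to 0.127 CPM. These values overlap and lie near what 3 counts would give, so ABCA1 did not pass the filter on low counts, was not tested and gets no fold change. A difference between the groups was not detectable at this depth.

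**Figure D1:**
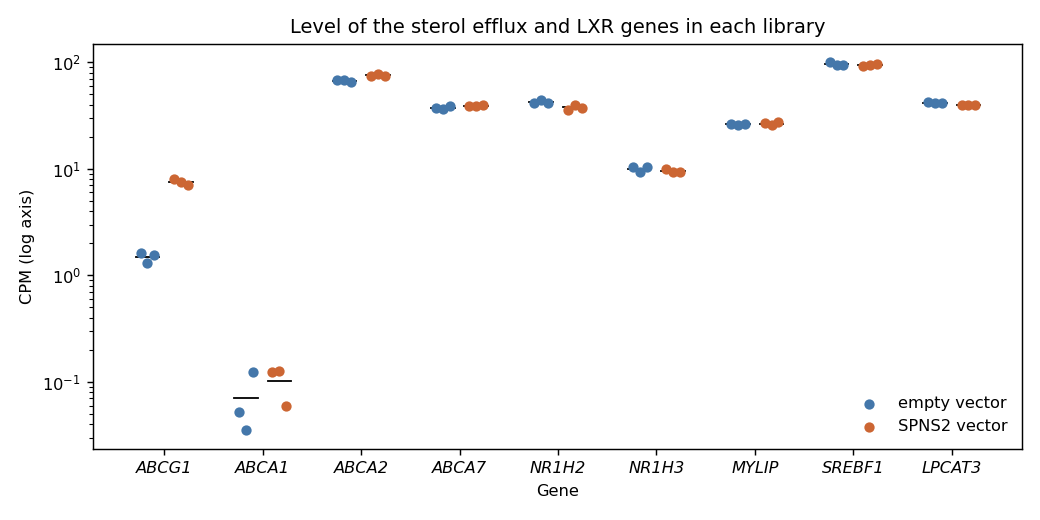
Level of the 9 genes in each library, in CPM on a log axis; each point is 1 library and each bar the mean of 3. The ABCG1 points of the SPNS2 libraries (7.06 to 8.08 CPM) lie above those of the empty vector libraries (1.30 to 1.63 CPM), while ABCA1 stays at or below 0.127 CPM and the other 7 genes shift little.

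Of the 8 genes other than ABCG1, 7 were tested, and 1 rose, 1 fell and 5 did not pass an adjusted p of 0.05 in edgeR. The called share, 28.6%, was near that of all 13308 features tested, 24.5% of which were called (11.9% rose and 12.6% fell). Likewise the groups did not overlap for 3 of the 7 (42.9%), against 40.1% of all features. The median log2 fold change of the 7 was -0.03, beside 0.00 for all features tested. The filter kept these 7 for counts in both groups.

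The LXR genes themselves were expressed in both groups. NR1H2 encodes LXR beta, the widely expressed form, and was at 41.5, 44.1 and 41.8 CPM in CTRL libraries and 35.9, 39.5 and 37.5 CPM with SPNS2. All 3 SPNS2 values lie below the lowest empty vector value, and NR1H2 fell by 0.17 in log2 terms (SE 0.0431, adjusted p = 0.0135 by edgeR). That call did not hold without CTRL library 2 (adjusted p = 0.0533), SPNS2 library 1 (0.0691) or SPNS2 library 3 (0.0505). NR1H3 encodes LXR alpha, the form of liver and macrophages that is itself an LXR target in human cells, and was lower at 10.3, 9.24 and 10.5 CPM in CTRL libraries and 9.87, 9.39 and 9.34 CPM with SPNS2. Its groups overlapped (log2 fold change -0.07, 95% interval -0.24 to 0.10, adjusted p = 0.537).

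Unlike ABCA1, the direct LXR targets MYLIP, SREBF1 and LPCAT3 were expressed well above ABCG1, and they did not pass. MYLIP was at 26.3, 25.9 and 26.4 CPM in CTRL libraries and 26.9, 25.5 and 27.3 CPM with SPNS2, overlapping groups with a log2 fold change of 0.02 (95% interval -0.08 to 0.12, adjusted p = 0.798 by edgeR). SREBF1 was at 99.6, 93.3 and 93.2 CPM and at 91.4, 94.1 and 95.3 CPM, also overlapping, with a log2 fold change of -0.03 (95% interval -0.10 to 0.05, adjusted p = 0.618). LPCAT3 was at 41.9, 41.5 and 41.6 CPM in CTRL libraries and 39.5, 39.8 and 39.3 CPM with SPNS2. Its groups did not overlap, yet the log2 fold change of -0.08 (95% interval -0.15 to -0.01, not adjusted for the number of features) had an adjusted p of 0.104. For these 3 genes the highest upper bound was 0.12, beside 2.32 for ABCG1, which was picked for its rise. Whether LXRs acted in these cells was not tested.

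ABCA2 and ABCA7, 2 relatives of ABCA1, differed in their calls. ABCA2, a transporter of late endosomes and lysosomes, was at 68.8, 67.7 and 64.9 CPM in CTRL libraries and 73.9, 77.3 and 74.8 CPM with SPNS2. It rose by 0.17 on the log2 scale (1.12-fold, SE 0.0339, adjusted p = 0.00476 by edgeR), with no overlap. ABCA7, which moves phospholipid and is known from Alzheimer disease genetics, was at 37.4, 36.1 and 39.0 CPM and at 38.8, 38.8 and 39.8 CPM. The groups overlapped, with a log2 fold change of 0.06 (95% interval -0.02 to 0.15, adjusted p = 0.271). Whether ABCA2 and ABCA7 differ in their change was not tested.

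**Figure D2:**
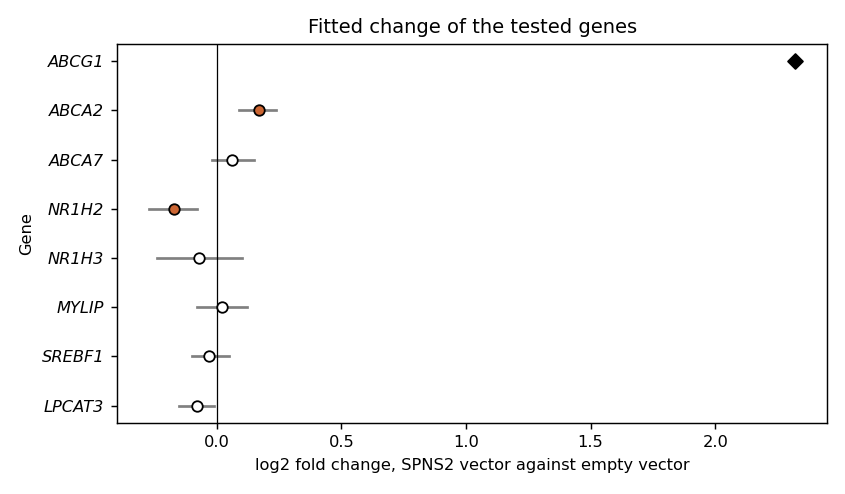
Fitted log2 fold change, SPNS2 vector against empty vector, for the 8 genes that passed the filter on low counts; lines are 95% intervals, filled circles passed an adjusted p of 0.05 and the diamond is ABCG1, shown as a description with no interval. ABCG1 lies at 2.32, and the intervals of the other 7 run from -0.27 to 0.24.

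Per transcript length the order of the genes was nearly the same in both groups. With the empty vector, in CPM per kilobase of the longest GENCODE 29 transcript (RPKM), SREBF1 led at 20.5 ± 0.788, then NR1H2 (17.8 ± 0.608), LPCAT3 (14.3 ± 0.0749), MYLIP (9.37 ± 0.101), ABCA2 (8.23 ± 0.243), ABCA7 (5.50 ± 0.211), NR1H3 (3.67 ± 0.251), ABCG1 (0.430 ± 0.0502) and ABCA1 (0.00671 ± 0.00451; SD, n = 3 each). No 2 neighbours in that order overlapped. With SPNS2, ABCG1 reached 2.17 ± 0.148 RPKM and was still next to last, below NR1H3 at 3.49 ± 0.107 RPKM, and MYLIP and ABCA2 overlapped (9.11 to 9.78 and 9.06 to 9.48 RPKM). So ABCG1 stayed the least expressed of the 8 tested genes by this measure, which depends on the transcript lengths used.

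In a wider list of 25 LXR targets, no tested gene was called as a rise. Of 24 with a row, 14 were tested with edgeR and 2 fell (14.3%, against 12.6% of all features). As for rises, 0 were called, also at an unadjusted p under 0.05, with DESeq2 and with limma voom, against 11.9% of all features by edgeR. A share of that size gives few rises among 14 genes. The list's median log2 fold change was -0.04. RNF145, a ubiquitin ligase that LXRs induce, was at 50.4, 52.2 and 52.3 CPM in CTRL libraries and 49.4, 51.0 and 50.5 CPM with SPNS2 (log2 fold change -0.04, 95% interval -0.11 to 0.04, adjusted p = 0.461). SMPDL3A, a phosphodiesterase strongly induced by LXR ligands in human blood cells, was under 1 CPM in all libraries, with an interval too wide to exclude modest change (0.05, 95% interval -0.57 to 0.67). FASN, fatty acid synthase, fell from 724, 685 and 683 CPM to 577, 612 and 578 CPM, by 0.24 in log2 terms (SE 0.0313, adjusted p = 0.000291 by edgeR), and LBR, a sterol reductase of the nuclear envelope, fell by 0.25 (adjusted p = 0.00134).

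The remaining tested LXR targets did not pass, and their log2 fold changes were spread around 0. SCD, the stearoyl-CoA desaturase, had -0.03, PLTP, the phospholipid transfer protein, -0.05, PLIN2, a lipid droplet coat, -0.03, and ARG2, the mitochondrial arginase, -0.25. The apolipoprotein genes were all scarce: APOE was at 0.716 ± 0.190 and 0.748 ± 0.0337 CPM (SD, n = 3 each) with a log2 fold change of 0.04, APOC1 had -0.58 and APOC2 0.57. MERTK, a receptor for dying cells, had 0.30, MLXIPL -0.21 and TTC39B -0.07. Of the 10 with a row that were not tested, 5, among them ABCG5, APOC4, ABCA12 and CYP7A1, had 0 counts in all libraries. The other 5 were ABCG4, ABCG8, LPL, CETP and CD5L, with 1 to 14 counts summed over a group.

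**Figure D3:**
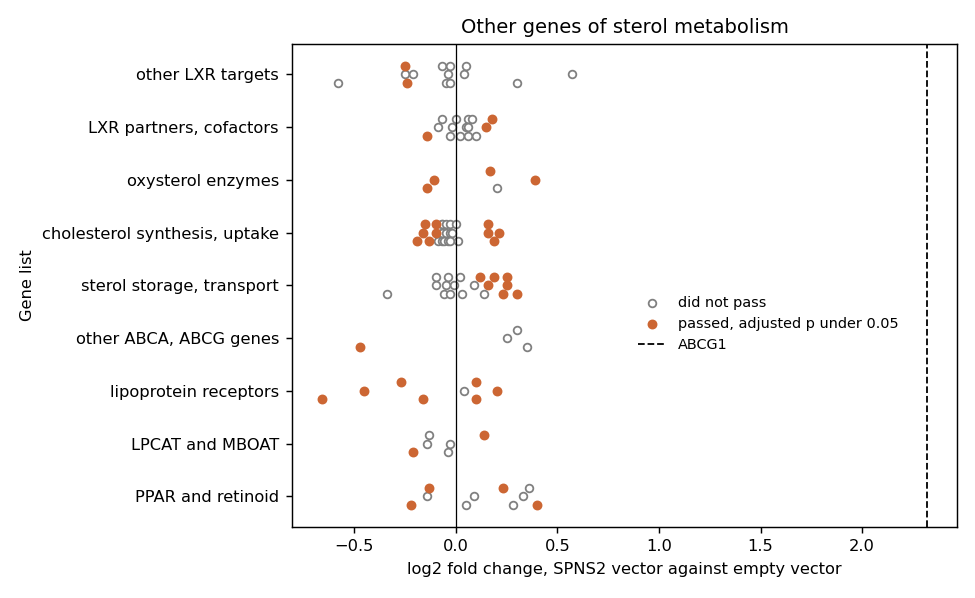
Fitted log2 fold change of the tested genes of 9 lists of sterol and lipid metabolism, without the 9 genes of the report; each circle is a gene, filled where it passed an adjusted p of 0.05, and the dashed line is ABCG1 at 2.32. No gene of any list comes near that line, but ABCG1 was picked for its rise. The largest fall is that of LRP1 at -0.66.

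Partners and cofactors of LXRs showed 3 small changes of 15 tested, where 24.5% of all features were called. RXRA, the retinoid X receptor that pairs with LXRs, fell from 62.5, 62.3 and 59.9 CPM to 51.9, 55.7 and 59.4 CPM (log2 fold change -0.14, adjusted p = 0.0407 by edgeR). The coactivator genes CREBBP and NCOA1 rose by 0.15 and 0.18 on the log2 scale (adjusted p = 0.0392 and 0.0411). The corepressor gene NCOR1 (-0.02) and the deacetylase gene HDAC3 (-0.07) did not pass. These calls were fragile. No rise was called when any of CTRL libraries 2 and 3 and SPNS2 libraries 1 and 2 was left out. The RXRA call was lost without any 1 of CTRL libraries 1, 2 and 3 and SPNS2 libraries 1 and 2 (adjusted p of 0.0533 to 0.147). Without SPNS2 library 2, the fall called was that of another cofactor gene, KMT2D (-0.14, adjusted p = 0.0133 by edgeR). KMT2D did not pass with all libraries (adjusted p = 0.101). All 3 calls were lost with a replicate block (adjusted p = 0.0609 for RXRA, 0.0743 for CREBBP and 0.0715 for NCOA1). NCOA1 was also not called with DESeq2 (0.155) or with no filter on low counts (0.0808), nor RXRA with library totals alone (0.0583). RXRB and RXRG were listed at 0 in all 6 libraries. The annotation behind the counts is not given in the sources used here, so a listed 0 for RXRB may not mean that it was not expressed.

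Enzymes that make or remove LXR ligands went both ways. CYP46A1, the hydroxylase best known from neurons that makes an oxysterol which activates LXRs, stood at 40.3, 41.9 and 44.6 CPM in CTRL libraries and 53.8, 56.2 and 55.5 CPM with SPNS2. All SPNS2 values were higher, a rise of 0.39 on the log2 scale (1.31-fold, SE 0.0407, adjusted p = 7.96e-05 by edgeR). Of the 5 tested genes of this list 4 were called (80.0%, against 24.5% of all features). EPHX1, an epoxide hydrolase, also rose (0.17), EBP, a sterol isomerase late in cholesterol synthesis, fell by 0.14, and HSD3B7, a bile acid enzyme, did not pass (0.20, adjusted p = 0.383). Without SPNS2 library 1, 1 gene rose and 0 fell, and without CTRL library 3 or SPNS2 library 3, 1 fell. CH25H, which makes another oxysterol and is induced by interferon, had 0 counts in all libraries, as had CYP39A1. CYP27A1 and CYP7B1 had 4 counts each over the empty vector libraries and 6 and 5 over the SPNS2 libraries.

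Most genes for lipoprotein receptors were called, in both directions. The list holds VLDLR and LRP8, receptors whose proteins MYLIP marks for degradation. Of 8 tested, 4 fell and 3 rose (87.5% called, against 24.5% of all features), with a median of -0.06. VLDLR stood at 26.2, 27.6 and 27.1 CPM in CTRL libraries and 20.3, 19.9 and 18.8 CPM with SPNS2, a fall of 0.45 in log2 terms (SE 0.0487, adjusted p = 9.04e-05 by edgeR). LRP8 went from 62.5, 61.6 and 62.1 CPM to 51.5, 53.1 and 50.2 CPM, a fall of 0.27 (SE 0.0326, adjusted p = 0.000214). LRP1, a large scavenger receptor, was at 5.88 ± 0.255 CPM in CTRL and 3.73 ± 0.302 CPM in SPNS2 libraries (SD, n = 3 each), a fall of 0.66 in log2 terms. SORL1, a sorting receptor, rose by 0.20, LRPAP1, their chaperone, by 0.10, and LRP10 by 0.10. The LRP10 call did not hold with DESeq2 (adjusted p = 0.0667), with a replicate block (0.0562) or without any 1 of CTRL libraries 2 and 3 and SPNS2 libraries 1 and 2 (0.103 to 0.140). So the mRNAs of VLDLR and LRP8 were lower while MYLIP mRNA did not pass, and receptor protein was not measured.

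Cholesterol synthesis and its SREBP2 control had 4 genes that rose and 6 that fell of 26 tested (38.5% called, against 24.5% of all features), with a median of -0.05. FDPS, which makes farnesyl diphosphate, fell by 0.19 (adjusted p = 0.00133 by edgeR), SREBF2 by 0.10 and its escort SCAP by 0.13, while IDI1 and TM7SF2 each rose by 0.16. Without CTRL library 1 or SPNS2 library 1 or 3, 2 rose, and without CTRL library 2 or SPNS2 library 3, 3 fell. The call of SREBF2 was lost without CTRL library 2 (adjusted p = 0.0557) or SPNS2 library 1 (0.0691), and that of SCAP without SPNS2 library 1 (0.0700) or 3 (0.0546).

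Among genes that store and move sterols inside the cell, 7 of 19 tested rose (36.8%, against 11.9% of all features) and 0 fell in edgeR, with a median of 0.03. At an unadjusted p under 0.05, 2 fell, and DESeq2 and limma voom each called 1 fall. NPC2, which hands cholesterol out of lysosomes, was at 138, 146 and 151 CPM in CTRL libraries and 181, 177 and 176 CPM with SPNS2, a rise of 0.30 in log2 terms (SE 0.0335, adjusted p = 0.000127). Its partner NPC1 did not pass (0.02, adjusted p = 0.656). SCARB2, a lysosomal membrane protein, rose by 0.23, OSBPL8, a lipid transfer protein, by 0.19 and GRAMD1A, a sterol carrier of the endoplasmic reticulum, by 0.12, and these 4 rises held without each single library. LIPA, the lysosomal acid lipase, rose by 0.16, a call lost without any 1 of CTRL libraries 1 and 3 and SPNS2 libraries 1 and 3 (adjusted p of 0.0584 to 0.0966). The calls of OSBPL5 and OSBPL11, both with a log2 fold change of 0.25, were lost with DESeq2 (adjusted p = 0.0810 and 0.132) and with a replicate block (0.0745 and 0.0808), and OSBPL11 was lost without each single library. SOAT1, which esterifies cholesterol, did not pass (-0.03). Without SPNS2 library 3, 4 rose and 1 fell, and 1 fell without CTRL library 1.

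Other ABCA and ABCG transporters were mostly silent in these cells. Of 13 beyond the 9 genes, 4 were tested, 1 fell (25.0%, against 12.6% of all features) and 0 rose by edgeR, with 0 rising also at an unadjusted p under 0.05, with DESeq2 and with limma voom. ABCA3, a phospholipid transporter of lamellar bodies, fell from 51.8, 51.5 and 48.6 CPM to 36.8, 37.3 and 35.6 CPM (log2 fold change -0.47 with SE 0.0376, and adjusted p = 1.36e-05 in edgeR). ABCG4, the closest relative of ABCG1, had 6 counts over the empty vector libraries and 9 over the SPNS2 libraries, and ABCG2 had 1 count in all. ABCG1 was thus the only tested gene of the ABCG family. Among relatives of LPCAT3, MBOAT7 fell by 0.21 and LPCAT2 rose by 0.14 on the log2 scale, and the other 4 tested did not pass (33.3% called, against 24.5% of all features); without SPNS2 library 1, 2 fell.

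Macrophage markers were followed beside these genes because sterol efflux is a macrophage trait. Of 11 with a row, 3 were tested and 2 rose (66.7%, against 11.9% of all features tested). CSF1R rose from 4.15, 3.76 and 3.57 CPM to 6.91, 6.88 and 7.33 CPM (log2 fold change 0.88, adjusted p = 0.000142 by edgeR). CD68, a lysosomal glycoprotein, rose by 0.49, and MARCO did not pass. The summed level of the 11 was 57.6 to 60.9 CPM in CTRL libraries and 81.7 to 86.8 CPM with SPNS2, nearly all of it CD68. The defining markers CD14, CD163, MSR1, C1QA, C1QC and FCGR3A had 0 to 3 counts summed over a group, while MRC1 had 17 and 8 and C1QB 24 and 31. The part of CSF1R and CD68 in the level of ABCG1 was not tested.

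The genes most like ABCG1 over the 6 libraries were other large rises. Likeness was the root mean square difference between log2 CPM profiles, each centred on its own empty vector mean, over 6 libraries. Centred values of ABCG1 were 0.13, -0.19 and 0.06 with the empty vector and 2.39, 2.28 and 2.20 with SPNS2. The nearest profiles were those of ABHD4 (0.466), TRIM6 (0.535), DZIP1 (0.566), ABLIM1 (0.602) and STON2 (0.623 log2 units), and none of these is in a list of sterol genes used here. The measure favours genes that rose by a similar amount in this comparison.

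**Figure D4:**
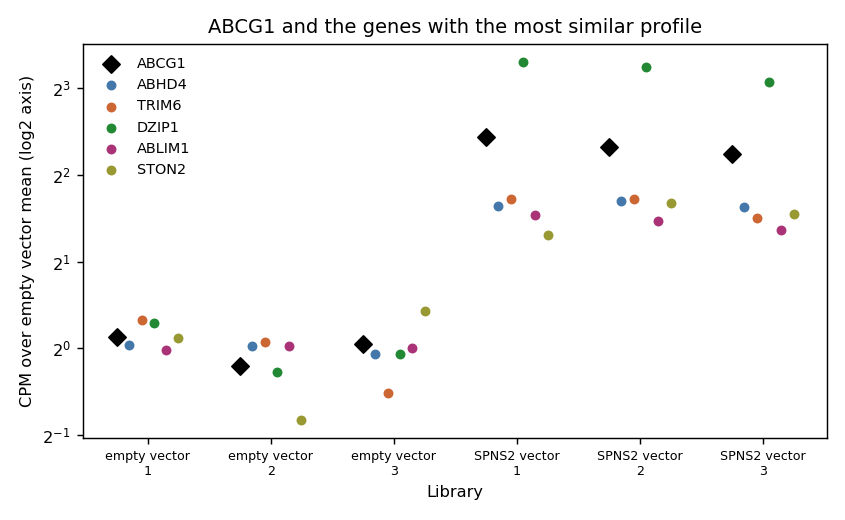
CPM of ABCG1 (diamonds) and of the 5 genes with the most similar profile, each divided by its own empty vector mean, in each of the 6 libraries on a log2 axis. In the SPNS2 libraries ABCG1 lies below DZIP1 and above the other 4 genes.

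Of the 3 nearest protein-coding genes on each side of ABCG1 by RefSeq order (GRCh38.p14, used for order only), 2 were tested. ZBTB21 was at 19.3 to 20.6 CPM in CTRL and 19.2 to 20.5 CPM in SPNS2 libraries, and C2CD2 at 2.76 ± 0.384 and 2.64 ± 0.0771 CPM (SD, n = 3 each), with log2 fold changes of -0.00 and -0.06 and adjusted p of 0.960 and 0.793 by edgeR. UMODL1 had 15 and 25 counts per group, and the trefoil factor genes TFF1, TFF2 and TFF3 had 0 or 1.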

How the data were processed

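Polyadenylated RNA went through a stranded TruSeq kit, per the labels' protocols. The authors deposited estimated counts for each gene, made with Salmon per the submitters' processing notes. For its version, the genome build and the annotation: not given in the sources used here. All values were whole numbers as deposited. Symbols came from gene name, RefSeq and GENCODE 29 tables for 29121 of 34370 Ensembl IDs.

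Groups followed the labels (3 against 3). Counts were filtered with filterByExpr (minimum count 10, minimum total 15), scaled by TMM and tested by the edgeR quasi-likelihood test (edgeR 4.0.16, R 4.3.3) with group as the only term, with Benjamini-Hochberg adjustment over 13308 features and a threshold of 0.05. Intervals are 95%, from that fit. Log2 CPM used a prior count of 2. The steps were tested on simulated counts. Replicates differed beyond sampling noise (chi-square per degree of freedom 3.11 to 6.09). Alternatives were DESeq2 1.42.0, limma voom 3.58.1, other scalings and filters, a replicate block and leaving out each library.

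Genes named are the 9 genes, up to 6 called genes per list by p, all tested LXR targets and oxysterol enzymes, the nearest neighbours of ABCG1 and the 5 most similar profiles; a few of these genes are not reported here. Untested or uncalled genes named beside them were chosen after their values were seen. Members and lists were chosen with earlier results of these data known.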

Additional observations from a re-analysis of the deposited data

How the results depend on the processing

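The log2 fold change of ABCG1 was 2.31 to 2.33 under the other scalings and tools, with no filter and with a replicate block, and 2.24 to 2.39 leaving out 1 library. With a minimum mean of 5 CPM it was not tested. ABCA2 was the gene that rose in every alternative; the count of genes other than ABCG1 that fell was 1 (NR1H2) except without single libraries (0 to 1). MYLIP ranged from -0.00 (without SPNS2 library 3) to 0.05 leaving out 1 library, and SREBF1 from -0.04 to 0.01 (without CTRL library 1), none called. Calls over all features numbered 2246 to 3263. Calls among the pathway lists were 39, from 148 genes with a row that were not all tested, and 24.5% of all features tested were called. Leaving out 1 library, the lists had 25 to 32 calls. Same-numbered libraries did not deviate together (correlations -0.0193 to 0.0375), so the numbers were not taken as pairs; with a replicate block 2723 features and 33 pathway genes were called, and 1 other gene rose and 1 fell. Not every library correlated best with its own number. Low counts limit ABCG1 in control cells and leave ABCA1 unresolved.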

Other observations

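Receptors and targets of peroxisome proliferator and retinoid signalling, other nuclear receptor systems tied to ABCG1, had 2 genes that rose and 2 that fell of 10 tested (40.0% called, against 24.5% of all features), with a median log2 fold change of 0.16. DHRS3, a retinaldehyde reductase induced by retinoic acid, was at 23.4 ± 1.02 in CTRL and 30.8 ± 0.805 CPM in SPNS2 libraries (SD, n = 3 each), a rise of 0.40 in log2 (adjusted p = 0.000195, edgeR). RARA rose by 0.23, but not with DESeq2 (adjusted p = 0.0571) or without any 1 of CTRL libraries 1 and 3 and SPNS2 libraries 1 and 2 (0.0581 to 0.121). FABP5 fell by 0.22 and ACADVL by 0.13, the latter not without any 1 of the same 4 libraries (0.0519 to 0.0749). Without any of those libraries 1 rose and 1 fell. PPARG had 36 and 43 counts per group and did not pass.

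A wider window around ABCG1, chosen after its values were seen, held 20 protein-coding genes, 10 on each side by RefSeq order. Of these, 10 were tested, 4 rose and 1 fell, against 11.9% of all features that rose and 12.6% that fell. PDE9A, a cyclic GMP phosphodiesterase, rose by 1.33 and SLC37A1, a sugar phosphate exchanger, by 0.37 on the log2 scale (adjusted p = 0.000312 and 0.00179 by edgeR). MX1 and MX2, both interferon-induced, rose by 1.26 and 0.90, and WDR4 fell by 0.29.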
